A study of Tupaia belangeri with 15 samples.

Results

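The fibrillins FBN1, FBN2 and FBN3 and the latent TGF-beta binding proteins LTBP1, LTBP2, LTBP3 and LTBP4 were followed by gene name through single-nucleus RNA-seq of the tree shrew (TS, Tupaia belangeri) retina. All 7 genes were among the 83605 features listed in every library. The members were taken as a gene family, and FBN2 was chosen by its measured levels in Müller glia, which were lower after infancy, so that pattern is described below without a test. The libraries came from retinas of 15 TSs, 5 labelled Infancy, 5 Mature and 5 Senile, with no label for strain, treatment or age in days. The senile TSs came from another institute than the infant and mature ones, so stage and animal source cannot be told apart in any comparison with the senile retinas.

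Fibrillins are large extracellular glycoproteins that polymerise into microfibrils, and the LTBPs are their shorter relatives, built from the same kinds of EGF-like and cysteine-rich domains. LTBP1, LTBP3 and LTBP4 hold latent TGF-beta in the matrix, where it can be released by integrins and proteases, while LTBP2 does not bind latent TGF-beta and is known for its place on fibrillin microfibrils. In the eye, microfibrils form the ciliary zonule that suspends the lens, and the non-pigmented ciliary epithelium is their known source. FBN1 is the main fibrillin of the adult, whereas FBN2 and FBN3 are best known from development.

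The matrices held 120437 barcodes, 4269 to 9856 per library, with 13429873 to 58734300 UMIs per library and medians of 1461 to 5611 UMIs per nucleus. Nuclei were assigned to classes by marker genes, and the names are "X-like" in that sense throughout. The assignment placed 57951 of the 119765 nuclei that passed the filters, namely 16460 cones, 986 rods, 21491 bipolar cells (BCs), 522 horizontal cells (HCs), 2765 amacrine cells (ACs), 5026 retinal ganglion cells (RGCs), 8777 Müller glia, 755 astrocytes, 716 microglia and 322 nuclei of ciliary epithelium type, besides small vascular and pigment epithelium groups. Since the assignment used these lists, their being highest in their own classes is no check of it. Some markers were at 0, such as CNGB3 of the cone list and GAD2 and SLC32A1 of the AC list. The assignment was only just met by 84.4% of ACs, 62.6% of HCs and 89.75% of the nuclei of ciliary epithelium type, against 13.1% of cones. The study reported many more ACs, so AC levels and rankings here cover only the part of them with enough markers detected. Of 118622 distinct barcodes, 1793 (1.51%) occurred in more than 1 library. Levels are given per retina and class as the UMIs of the gene per 1000000 UMIs of that class (CPM), and they are compared for the same gene between classes or stages, not between genes.

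Ciliary epithelium RNA was uneven between libraries. The summed level of the ciliary markers WFDC1, ZIC1 and MSX1, without OPTC and CPAMD8 of the same list, was taken in nuclei of the retinal classes. This level was 40.3 CPM in Mature 4 and 21.7 CPM in Senile 3. It was 7.47 CPM in Senile 4, 6.54 CPM in Senile 5, 4.37 CPM in Mature 5 and 3.94 CPM in Infancy 5, and 1.14 to 3.09 CPM in the other libraries. This level also went with the version of the counting software Cell Ranger in the matrix headers. Infancy 1 to 3, Mature 1 and 2 and Senile 1 and 2 were of version 6.1.2 and held 1.14 to 2.15 CPM. The other libraries were of version 7.0.1 and held 2.74 to 40.3 CPM. Version and ciliary RNA therefore cannot be fully told apart. The version also went with separate runs of the sample numbers and with depth. Medians were 1461 to 3068 UMIs per nucleus in libraries of version 6.1.2 and 2268 to 5611 in those of version 7.0.1. Differences between the versions below thus cannot be credited to the software alone. Mature 4 also gave 259 of the 322 nuclei of ciliary epithelium type. CPAMD8 in Müller glia was likewise highest in Mature 4, at 157 CPM, as was OPTC in BCs (37.1 CPM) and in cones (33.7 CPM). OPTC in Müller glia went otherwise, with 232 CPM in Mature 4 and 400 to 467 CPM in Infancy 1 to 3. ZIC1 was also counted in astrocytes, at 94.8 CPM (7 UMIs) in Mature 5 and 0 in Mature 4, so the summed level is not specific to ciliary RNA.

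FBN2 was high in both photoreceptor classes, intermediate in ACs and infant Müller glia, and low in BCs and RGCs. Of the 28510 FBN2 UMIs in all kept nuclei, 70.06% lay in cones. In cones the level was 261 CPM ± 81.2 (SD, n = 15 retinas), with a range of 151 to 459 CPM. In rods it was 264 CPM ± 92.7 (SD, n = 14 retinas with at least 10 rods), from 120 to 431 CPM. Cones and rods did not differ beyond the spread between retinas, since cones exceeded rods by 0.06 on the log2(CPM + 1) scale and were higher in 6 of 14 retinas (exact 2-sided sign-flip permutation test within retinas, p = 0.742, adjusted p = 1.0).

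With the stages pooled, the next class by mean was ACs, the inhibitory interneurons of the inner retina, with 6.97 to 96.4 CPM and a mean of 41.4 CPM. ACs exceeded Müller glia in 8 of 15 retinas, and in infancy the AC mean of 34.5 CPM lay below that of Müller glia, 85.5 CPM. Rods exceeded ACs by 2.91 log2 units and did so in 14 of 14 retinas (exact sign-flip permutation test, p = 0.000122, the smallest this number of retinas can give, adjusted p = 0.00146). BCs held 3.19 to 8.86 CPM and RGCs 0 to 6.65 CPM. Cones with more S-opsin (OPN1SW) than L-opsin (OPN1LW) UMIs did not stand apart from the other cones. In the 14 retinas with enough of both, they held 280 CPM ± 73.4 (SD) of FBN2 against 265 CPM ± 85.9, and were the higher of the pair in 7 of 14 retinas.

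In Müller glia, the radial glia that span the retina, FBN2 was high in infancy and low thereafter. In infancy it measured 59.1, 66.6, 75.3, 75.8 and 150.5 CPM in replicates 1 to 5. In the mature retinas it measured 10.2, 5.12, 26.5, 54.0 and 5.03 CPM in the same order. In the senile retinas it measured 7.92, 23.9, 12.7, 6.09 and 7.85 CPM. Infancy 5 was the highest infant value, Mature 4 lay just under the lowest infant value, and neither later stage overlapped infancy. The mean dropped from 85.5 CPM ± 37.0 (SD, n = 5) to 20.2 CPM ± 20.9 in the mature and 11.7 CPM ± 7.25 in the senile retinas. The fitted log2 differences were -2.32 for mature minus infancy and -3.52 for senile minus infancy, and because these contrasts chose the gene they are given with no test. Of all Müller glia features tested, 0.494% were lower in the mature and 0.319% lower in the senile retinas without overlap. The mature difference was -2.92 without Mature 4.

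**Figure D1:**
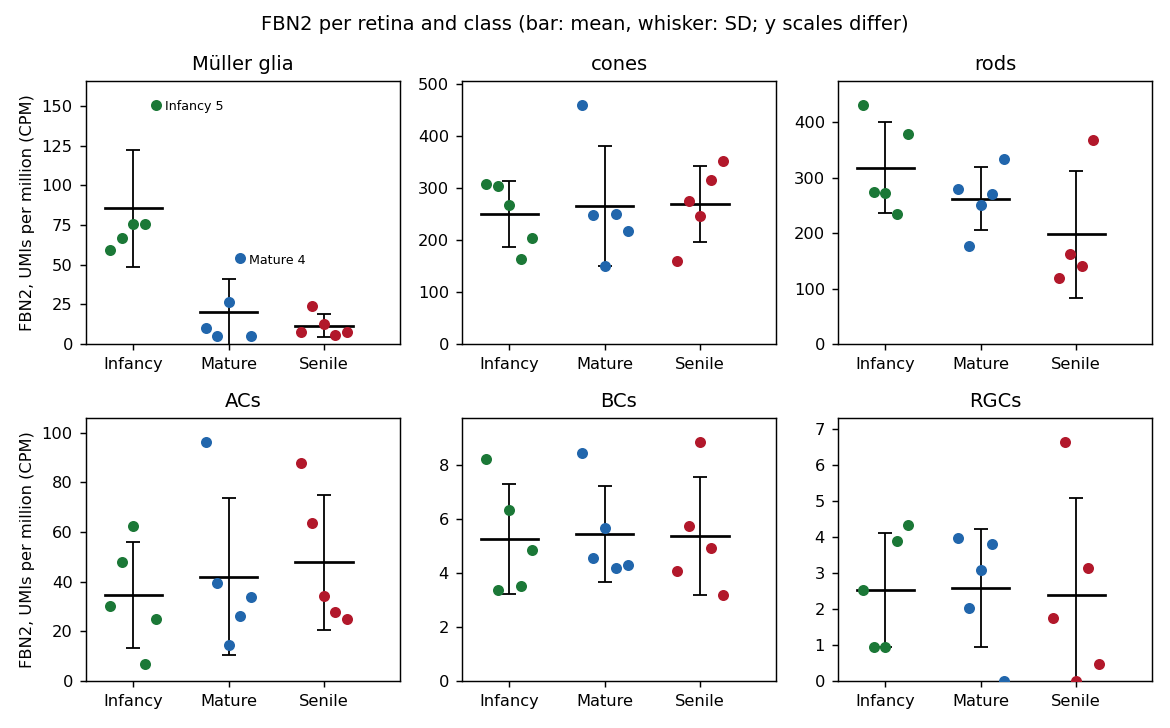
FBN2 in CPM per retina (points, coloured by stage) in 6 classes, with the mean (bar) and SD (whisker) of each stage; the vertical scales differ between panels. In Müller glia the infant retinas lie between 59.1 and 150.5 CPM, above every mature and senile retina, while the stages overlap in cones, rods, ACs, BCs and RGCs.

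Free RNA from the abundant cones can reach nuclei of other classes, so FBN2 was set against the cone marker list in each class. In cones there were 2.57, 3.21 and 3.28 FBN2 UMIs per 100 cone-marker UMIs in infancy, maturity and senility. BCs, with 3.10, 2.69 and 1.27, and RGCs, with 2.63, 2.68 and 2.03, held FBN2 close to the cone ratio or below it. ACs stood well above it with 38.2, 35.2 and 31.4. Rods stood higher still with 101, 65.5 and 41.6.

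Müller glia moved from above the cone ratio to below it. They held 47.5 FBN2 UMIs per 100 cone-marker UMIs in infancy, 10.9 in the mature (5.92 without Mature 4) and 2.06 in the senile retinas. The cone list itself, of which 7 of 8 genes were detected in Müller glia, had a median of 197 CPM in infancy (116 to 272), 225 CPM in the mature (152 to 309) and 423 CPM in the senile retinas (103 to 633). The part of cone RNA in the FBN2 values of these classes was not tested. The class assignment caps the number of cone markers that a nucleus of another class may hold, which raises this ratio outside cones.

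**Figure D2:**
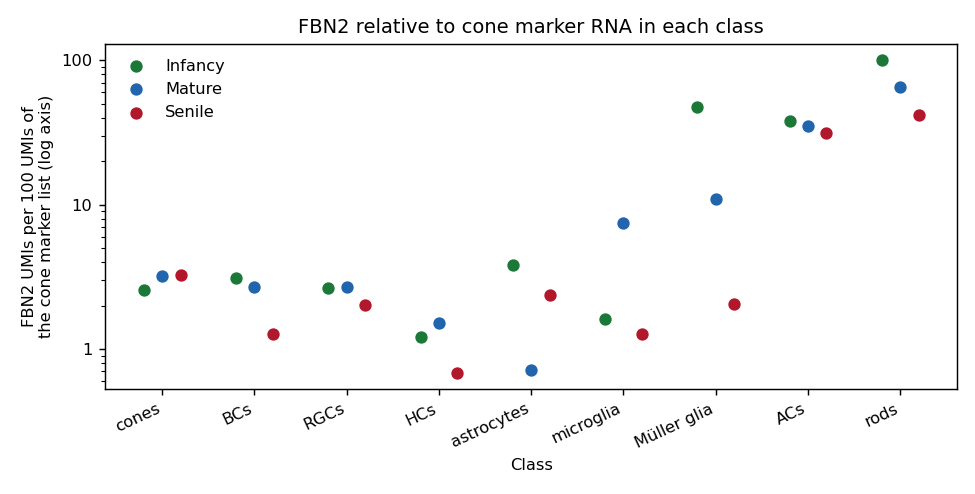
FBN2 UMIs per 100 UMIs of the cone marker list (vertical, log axis), pooled over the retinas of a stage, for each class and stage. Cones, BCs and RGCs lie near 3 or lower, rods and ACs far above, and Müller glia drop from 47.5 in infancy to 2.06 in senility. The mature Müller glia value of 10.9 is 5.92 without Mature 4.

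Outside Müller glia, FBN2 gave no stage difference past the threshold. In cones the mature minus infancy difference was 0.14 ± 0.26 (SE) and the senile minus infancy difference 0.16 ± 0.27 on the log2 scale, with adjusted p = 0.902 and 0.896 (edgeR quasi-likelihood test, Benjamini-Hochberg over all features of the class). In rods FBN2 was 431, 274, 273, 236 and 378 CPM in infancy, 279, 177, 251, 271 and 334 CPM in the mature, and 120, 163, 141 and 367 CPM in the 4 senile retinas with enough rods. The senile rods lay below every infant retina in 3 of 4 retinas, with Senile 5 among the infant values. The senile minus infancy difference of -0.74 ± 0.31 (SE) did not pass (edgeR adjusted p = 0.360). In ACs the differences from infancy were 0.46 ± 0.30 for mature and 0.59 ± 0.32 for senile retinas (edgeR adjusted p = 0.698 and 0.762).

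In nuclei of ciliary epithelium type, FBN2 was 209 CPM in Infancy 5 (19 UMIs) and 14.2 CPM in Mature 4 (15 UMIs), and no UMI was found in Senile 3 or Senile 4. With 1 infant and 1 mature library, no stage test was made there.

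The 5 features whose levels over the 15 retinas were most like FBN2 in Müller glia were IQCG (Pearson r = 0.83), CCDC146 (0.80), TMEM269 (0.80), SLC35F1 (0.78) and the noncoding LINC-HMGB3-6 (0.78). SLC35F1 had 149 to 347 CPM in infancy, 85.7 to 124 CPM in the mature and 51.2 to 91.3 CPM in the senile retinas, without overlap between infancy and the later stages. The other 4 overlapped between infancy and both later stages, as IQCG did with 8.44 to 12.7 CPM in infancy, 5.03 to 15.7 CPM in the mature and 3.96 to 10.2 CPM in the senile retinas. These r values share libraries and depth and are given as a description, chosen as the highest of all features. Of the other members, FBN1 had r = -0.31 with FBN2, LTBP2 -0.06, FBN3 0.12 and LTBP3 0.13.

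FBN1 was divided between classes quite differently from FBN2. Its highest level was in nuclei of ciliary epithelium type, at 1571 CPM in Infancy 5, 1751 CPM in Mature 4, 1807 CPM in Senile 3 and 2629 CPM in Senile 4. Among the retinal classes astrocytes, the glia of the nerve fibre layer, were highest with 281 CPM ± 147 (SD, n = 15). Astrocytes exceeded the next class, ACs, by 1.74 log2 units in 15 of 15 retinas (exact sign-flip permutation test, p = 6.1e-05, the smallest possible, adjusted p = 0.000977). ACs (42.1 to 115 CPM) exceeded RGCs (37.5 to 83.0 CPM) in 13 of 15 retinas, which did not pass after adjustment (exact permutation test, adjusted p = 0.192). RGCs exceeded Müller glia (6.82 to 227 CPM) in 12 of 15 retinas, which did not pass after adjustment (exact permutation test, adjusted p = 0.071). In the mature retinas the Müller glia mean of 77.2 CPM lay above those of ACs (74.0 CPM) and RGCs (66.3 CPM). That order rested on Mature 4, with 227 CPM in Müller glia. The mature medians had the other order, at 44.3 CPM in Müller glia, 64.5 CPM in ACs and 61.2 CPM in RGCs. The difference between Müller glia and BCs (14.4 to 78.8 CPM) did not pass either (exact permutation test, adjusted p = 1.0).

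ACs themselves were not uniform for FBN1. Those with at least 1 UMI of TAC1, which encodes a precursor of the neuropeptide substance P, held 209 CPM ± 118 (SD, n = 8 retinas, 166 nuclei), against 58.2 CPM ± 21.5 in ACs without it. The 8 retinas are those with at least 10 such nuclei, Infancy 1 to 5 and Mature 1 to 3, with no senile retina among them. FBN1 was higher in the TAC1 nuclei in 8 of 8 retinas. FBN2 went the other way, with 1 UMI in the 166 TAC1 nuclei of these retinas against a mean of 44.6 CPM in the rest. This split by TAC1 was chosen after its values were seen and carries no test. It covers the assigned ACs only, of which 84.4% only just met the class assignment.

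**Figure D3:**
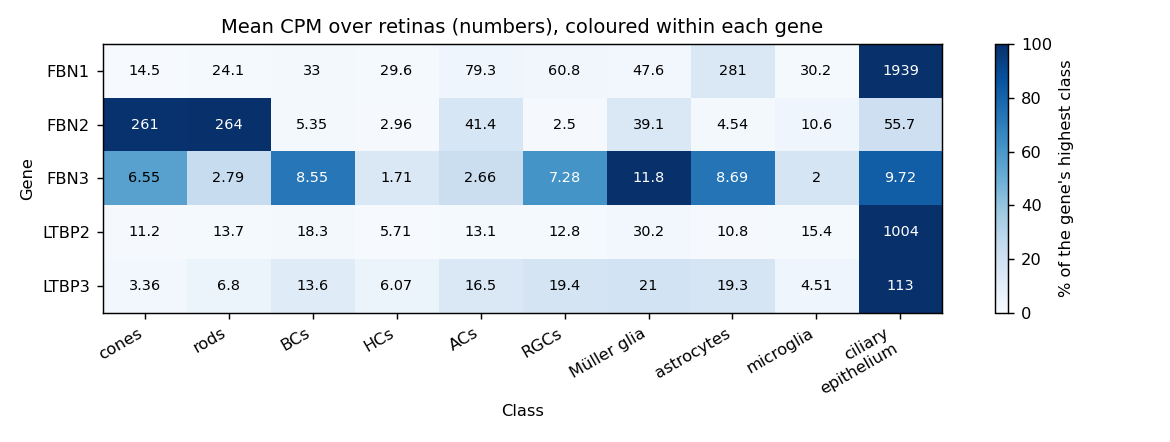
Mean CPM over retinas (printed in each cell) of the 5 members with measurable counts in 10 classes, coloured as a percentage of the gene's own highest class. FBN2 peaks in cones and rods with 261 and 264 CPM, FBN1, LTBP2 and LTBP3 peak in nuclei of ciliary epithelium type, and FBN3 is low in every class. The ciliary values are unweighted means over 4 libraries, with 259 nuclei in Mature 4 and 17 in Infancy 5.

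Mean FBN1 was higher in both later stages than in infancy in Müller glia, BCs, cones, ACs and RGCs and lower in astrocytes, but none of these differences passed the adjusted threshold in the edgeR fit. In Müller glia it measured 9.10, 14.0, 12.3, 22.4 and 27.1 CPM in infancy. It measured 40.7, 29.3, 44.3, 227 and 44.4 CPM in the mature retinas, and 19.8, 6.82, 72.7, 67.5 and 75.9 CPM in the senile ones. Every mature retina lay above every infant one, as did 1.9% of all Müller glia features tested, whereas 2 of the senile retinas lay within or below the infant range. These were Senile 1 and Senile 2, the senile libraries of Cell Ranger version 6.1.2. The mature minus infancy difference was 1.78 ± 0.43 (SE) on the log2 scale (edgeR adjusted p = 0.0579), and the senile difference was 1.07 ± 0.45 (edgeR adjusted p = 0.514). The senile difference ran from 0.28, in the libraries counted with version 6.1.2 of the software Cell Ranger, to 1.49 over the 27 alternatives, and passed only without the filter on low counts, at 1.01 (edgeR adjusted p = 0.0121, with a highest value of 0.890 over the alternatives).

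The size of the mature difference in Müller glia rested in part on the library with the most ciliary RNA. Without Mature 4 it was 1.15 (edgeR adjusted p = 0.0813), and without nuclei holding WFDC1, ZIC1 or MSX1 it was 1.25 (edgeR adjusted p = 0.308). With the ciliary marker level as a covariate it was 1.16 and passed (edgeR adjusted p = 0.0319). Leaving out Mature 3 or Mature 5 also brought it past the threshold, with 1.98 and 1.97 (edgeR adjusted p = 0.0234 and 0.0276), and over all 27 alternatives the adjusted p ran from 1.46e-10 to 0.404. The full ciliary list, with 5 of 5 genes detected in Müller glia and most of its UMIs from OPTC, was 162 to 525 CPM in infancy, 279 to 444 CPM in the mature and 202 to 532 CPM in the senile retinas.

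In BCs, the interneurons between photoreceptors and RGCs, FBN1 was 18.2, 15.0, 14.4, 19.3 and 19.6 CPM in infancy. In the mature retinas it was 24.4, 29.7, 28.6, 78.8 and 35.2 CPM, and in the senile retinas 23.7, 40.3, 34.6, 72.0 and 41.4 CPM. Both later stages lay wholly above infancy, as did 1.75% of all BC features in the mature and 2.09% in the senile retinas, with Mature 4 and Senile 4 highest. The differences from infancy were 1.02 ± 0.29 (SE) for mature and 1.06 ± 0.30 for senile retinas (edgeR adjusted p = 0.125 and 0.137). Leaving out Mature 4 made them 0.72 and 1.12, of which the senile one then passed (edgeR adjusted p = 0.158 and 0.0165), whereas leaving out Senile 4 made the senile one 0.80 (edgeR adjusted p = 0.359). Leaving out nuclei with ciliary markers gave 0.86 and 1.01 (edgeR adjusted p = 0.0737 and 0.0296). With the replicate number as a block both passed, at 1.04 and 1.12 (edgeR adjusted p = 0.0391 and 0.0215). The ciliary list in BCs was 11.9 to 18.1 CPM in infancy, 9.71 to 102 CPM in the mature and 7.05 to 46.7 CPM in the senile retinas. Over the infant BCs most of its UMIs came from OPTC.

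In cones FBN1 was 4.54, 3.11, 4.03, 6.46 and 13.1 CPM in infancy, 5.05, 2.85, 13.3, 48.1 and 10.3 CPM in the mature, and 5.601, 5.81, 25.2, 41.9 and 27.96 CPM in the senile retinas. The stages overlapped, and the senile minus infancy difference of 1.09 ± 0.44 (SE) did not pass (edgeR adjusted p = 0.354). Without the filter on low counts the difference was again 1.09, and it passed (edgeR adjusted p = 0.0163). It was 0.45 among libraries of Cell Ranger version 6.1.2 and 1.64 among those of version 7.0.1.

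In ACs the FBN1 means were 66.9, 74.0 and 96.9 CPM in infancy, maturity and senility, and the senile minus infancy difference was 0.50 ± 0.25 (SE, edgeR adjusted p = 0.738). In RGCs, the output neurons of the retina, they were 53.9, 66.3 and 62.0 CPM, with differences from infancy of 0.16 ± 0.14 and 0.02 ± 0.14 (edgeR adjusted p = 0.756 and 0.999). The stages overlapped in both classes.

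Markers of the retinal pigment epithelium also had higher medians in the later stages. Their summed level in Müller glia was 0.91 to 11.0 CPM in infancy (median 4.46), 5.12 to 62.4 CPM in the mature (9.79) and 1.32 to 87.9 CPM in the senile retinas (22.5). The medians in the same order were 3.37, 11.98 and 18.0 CPM in BCs and 7.07, 11.9 and 20.0 CPM in cones, and the stages overlapped in these 3 classes. Of the 7 genes 6 were detected in each of them, with TYR at 0. The list includes TTR, and the study names TTR+ BCs among its BC subpopulations. The sum therefore need not be pigment epithelium RNA alone. The part of pigment epithelium RNA in the FBN1 values was not tested.

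**Figure D4:**
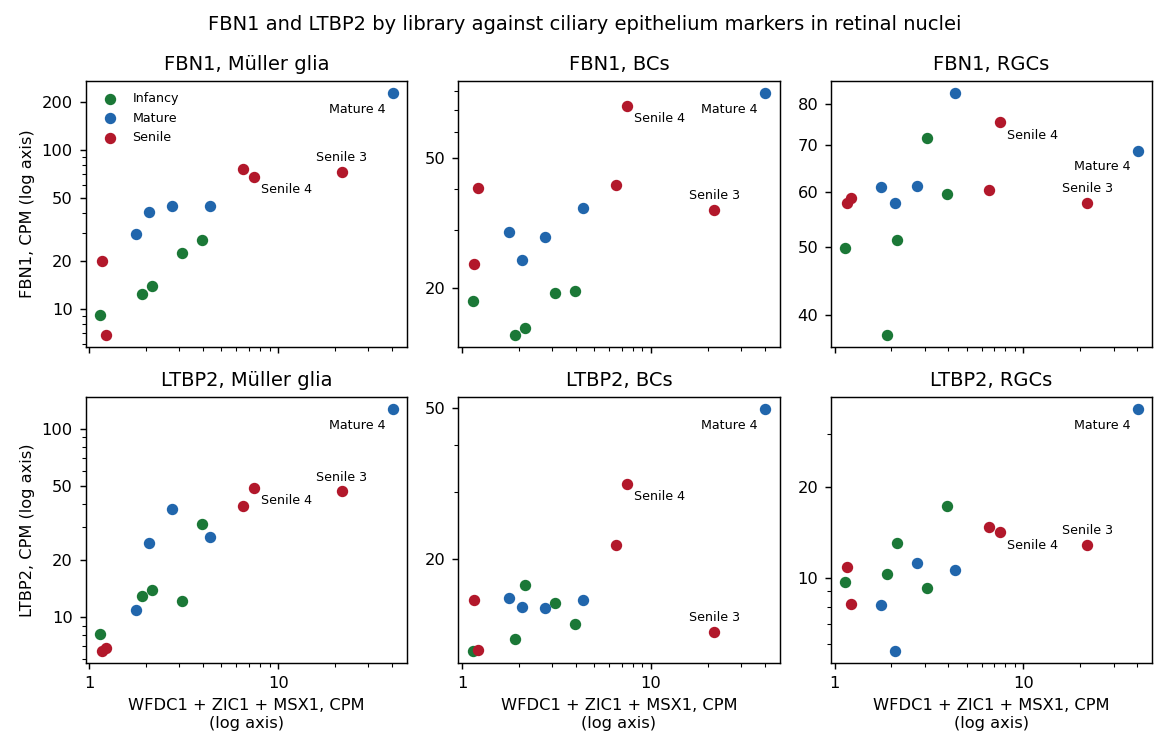
FBN1 (top) and LTBP2 (bottom) in CPM per retina in Müller glia, BCs and RGCs against the summed CPM of WFDC1, ZIC1 and MSX1 in the retinal classes of the same library (both axes log), coloured by stage. Mature 4, at 40.3 CPM of the markers, has the highest FBN1 in Müller glia (227 CPM) and BCs (78.8 CPM) and the highest LTBP2 in all 3 classes.

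In astrocytes FBN1 was 151, 223, 202, 529 and 675 CPM in infancy. In the mature retinas it was 300, 208, 214, 197 and 366 CPM, and in the senile retinas 200, 135, 239, 346 and 232 CPM. The higher infant mean came from Infancy 4 and Infancy 5, the infant libraries of Cell Ranger version 7.0.1, and the other infant retinas lay within the range of the later stages. The difference from infancy was -0.59 ± 0.28 (SE) for mature and -0.86 ± 0.28 for senile retinas (edgeR adjusted p = 0.489 and 0.268). The mature difference had opposite signs in the libraries of the different versions, at 0.33 among those of version 6.1.2 and -1.31 among those of version 7.0.1. Version, depth and the run of sample numbers cannot be told apart in this.

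The change of FBN1 in one class was also compared with that in another within the same retinas. Over the members and pairs of classes, 141 such tests were made, 19 had p below 0.05 (exact 2-sided permutation tests over retinas) and 0 passed after Benjamini-Hochberg adjustment, where over all features the share with p below 0.05 was 6.16%. The groups of retinas did not overlap in 5 of the 141, all for FBN1, against 1.69% over all features. Each of the 5 had p = 0.00794, the smallest that exact permutation of 5 against 5 can give, and adjusted p = 0.224. The mature minus infancy change was 2.03 log2 units larger in Müller glia than in astrocytes and 0.70 larger in BCs than in RGCs, and the difference of RGCs from Müller glia in it was -1.45. The senile minus infancy change was 0.94 larger in BCs than in RGCs, and the senile minus mature change was 1.24 larger in cones than in Müller glia. These tests share classes and retinas.

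LTBP2, like FBN1, was highest in nuclei of ciliary epithelium type. It was 1043 CPM in Infancy 5, 1021 CPM in Mature 4, 1139 CPM in Senile 3 and 814 CPM in Senile 4 there. In Müller glia it was 8.19, 14.0, 13.0, 12.2 and 31.2 CPM in infancy, 24.7, 11.0, 37.4, 127 and 26.8 CPM in the mature, and 6.60, 6.82, 46.5, 48.7 and 39.0 CPM in the senile retinas. The stages overlapped, and Mature 4 was again far above the rest. The mature minus infancy difference of 1.06 ± 0.45 (SE) did not pass and was 0.50 without Mature 4 (edgeR adjusted p = 0.414 and 0.607). Without nuclei holding WFDC1, ZIC1 or MSX1 it was 0.58 (edgeR adjusted p = 0.734), and without the filter on low counts it was 1.08 and passed (edgeR adjusted p = 0.00978).

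The ratio of LTBP2 to FBN1 UMIs is given per class as LTBP2 UMIs per 100 FBN1 UMIs. Over the 15 retinas its median was 94.2 in cones (39.7 to 258), 64.0 in Müller glia (33.3 to 115) and 61.5 in BCs (28.6 to 114). It was 18.8 in RGCs (9.87 to 52.8), 15.6 in ACs (3.03 to 43.6) and 2.63 in astrocytes (0 to 14.3), and 31.0 to 66.4 in the 4 libraries with nuclei of ciliary epithelium type. In Mature 4, Müller glia held 55.8 LTBP2 UMIs per 100 FBN1 UMIs, next to 58.3 in the nuclei of ciliary epithelium type of that library. The same pair of values was 115 and 66.4 in Infancy 5, 64.0 and 63.01 in Senile 3 and 72.1 and 31.0 in Senile 4. In Mature 4 cones held 77.8, BCs 62.8, RGCs 52.8, ACs 43.6 and astrocytes 14.3, the last from 7 FBN1 UMIs. Among retinal classes LTBP2 was higher in BCs than in RGCs in 14 of 15 retinas (0.48 log2 units, exact sign-flip permutation test, adjusted p = 0.0041), and the difference between Müller glia and BCs did not pass (exact permutation test, adjusted p = 0.532). Both genes were also set against the full ciliary marker list. In nuclei of ciliary epithelium type there were 76.1, 95.3 and 78.1 FBN1 UMIs and 50.5, 55.6 and 35.8 LTBP2 UMIs per 100 marker UMIs in infancy, maturity and senility. Cones held 55.4, 80.2 and 102 for FBN1 and 63.9, 65.9 and 67.3 for LTBP2, and BCs 126, 131 and 171 for FBN1 and 99.0, 71.9 and 84.3 for LTBP2. RGCs, with 939, 576 and 577 for FBN1, and ACs, with 391, 305 and 410, lay far above the ciliary nuclei, whereas astrocytes held 260, 110 and 126. In Müller glia, where OPTC gave most of the marker UMIs, there were 5.72, 27.8 and 26.5 for FBN1 and 5.10, 16.5 and 15.4 for LTBP2. In Müller glia of Infancy 1 to 3, OPTC was 400 to 467 CPM where WFDC1 was 1.82 to 3.25 CPM. OPTC also gave most of the marker UMIs in cones and in infant BCs. In astrocytes CPAMD8 gave most of them, and no MSX1 UMI was found. The ratios thus rest on different genes in different classes. Without Mature 4 the mature FBN1 values were 13.6 in Müller glia and 224 in BCs, and the mature LTBP2 values 9.27 and 112. The mature FBN1 values without it were 782 in RGCs, 381 in ACs and 102 in cones, and the LTBP2 value in cones was 87.7. The part of ciliary RNA in the FBN1 and LTBP2 values of retinal classes was not tested beyond these values.

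Nuclei with at least 1 UMI of WFDC1, ZIC1 or MSX1, inside or outside the class assignment, held much of the family's RNA. They made up 4851 of 119765 nuclei (4.05%) and 5.53% of UMIs, but carried 51.8% of LTBP2 UMIs, 41.3% of FBN1 UMIs and 14.2% of LTBP3 UMIs. They carried 5.33% of FBN3 UMIs and 3.54% of FBN2 UMIs, about their share of all UMIs or less. Much of this came from Mature 4: without that library they carried 30.2% of LTBP2, 21.6% of FBN1 and 7.77% of LTBP3 UMIs, with 3.16% of all UMIs.

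FBN3, the fibrillin best known from fetal tissues, was low in every class. In Müller glia it was 5.92 to 20.9 CPM with a mean of 11.8 CPM, above BCs in 14 of 15 retinas by 0.42 log2 units (exact sign-flip permutation test, adjusted p = 0.0142), a call that was lost under a stricter class assignment. Its senile minus infancy difference in Müller glia was -0.75 ± 0.32 (SE), which did not pass (edgeR adjusted p = 0.515). The infant values were 7.28 to 20.9 CPM, the mature 9.80 to 19.3 CPM and the senile 5.92 to 10.6 CPM, so all stages overlapped.

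LTBP3, which binds latent TGF-beta, was spread over most classes. It was 31.3 to 248 CPM in nuclei of ciliary epithelium type, 7.46 to 36.4 CPM in Müller glia and 7.36 to 28.3 CPM in RGCs. The lowest of the ciliary values rested on 1 UMI. The difference between Müller glia and RGCs did not pass (exact sign-flip permutation test, adjusted p = 1.0). Cones were lowest among the large classes with 1.13 to 11.6 CPM, below BCs in 15 of 15 retinas by 1.84 log2 units (exact permutation test, adjusted p = 0.000977). In ACs LTBP3 was 13.9, 22.9, 16.6, 3.48 and 6.94 CPM in infancy and 35.9, 27.9, 16.9, 12.4 and 15.6 CPM in the mature retinas, with overlap between the stages. The difference of 0.99 ± 0.28 (SE) did not pass (edgeR adjusted p = 0.221).

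LTBP1 and LTBP4 were nearly or wholly uncounted. LTBP1 had 29 UMIs among the 445857418 of all kept nuclei, which is 0.065 CPM (exact 95% Poisson interval 0.0436 to 0.0934, counting error only). LTBP4 had 0 UMIs, and a count of 0 allows a level of up to 0.00673 CPM (3 UMIs). An antisense feature named LTBP1-AS-1 had 1983 UMIs in assigned nuclei, with 41.5 CPM ± 15.4 (SD, n = 15) in Müller glia and 159 CPM in the nuclei of ciliary epithelium type of Mature 4. FBN2-AS-4 had 1058 UMIs, at 11.1 CPM ± 5.21 in cones. The strand setting of the counting is not given in the sources used here, so reads of a gene and of its antisense partner may not be fully separated.

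Over all members and the 9 retinal classes, 25 of 63 gene and class pairs passed the filter on low counts, and 24 of them were tested at each of 3 contrasts. None was called at an adjusted p below 0.05 by edgeR, against 0.823% of all features over these classes for mature against infancy, 1.1% for senile against infancy and 0.00391% for senile against mature. At an unadjusted p below 0.05 there were 5, 6 and 1 pairs by edgeR, where the shares over all features were 10.4%, 8.72% and 8.69%. DESeq2 called 2 pairs for mature against infancy (FBN1 in BCs and in Müller glia), 1 for senile against infancy (FBN1 in BCs) and 0 for senile against mature, where it called 1.64%, 1.83% and 0.311% of all features. The pairs without overlap were 2 for mature and 1 for senile against infancy, all of them FBN1, against 2.17% and 2.71% of all features, and there were 0 between senile and mature retinas, against 1.1%. The median log2 difference over the 24 pairs was 0.21, 0.20 and -0.17 in the order of the contrasts, where the class medians over all features lay between -0.04 and 0.03.

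The microfibril partners were compared by their mean level in each class. Of 24 listed genes that build, cross-link or process microfibrils and elastic fibres, 14 had at least 100 UMIs, and among the retinal classes astrocytes had the highest mean level for 6 of them and Müller glia for 3. For several of these the next class lay within the spread, as for FN1 with 145 CPM ± 117 in astrocytes and 137 CPM ± 263 in microglia, and no test was made. The mean over the 4 libraries with nuclei of ciliary epithelium type was higher still for 11 of the 14, with 1035 CPM of FBLN1 and 290 CPM of MFAP2. EFEMP1, a fibulin, reached 1734 CPM ± 502 (SD, n = 15) in astrocytes, and MFAP2, a small glycoprotein of microfibrils, reached 101 CPM ± 48.8 in astrocytes. ELN, which encodes elastin, was highest among the retinal classes in Müller glia at 17.3 CPM ± 4.07, against 34.04 CPM in the nuclei of ciliary epithelium type. EMILIN1, FBLN2, LOXL1, LOXL2 and ADAMTSL2 had 0 UMIs.

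Among the retinal classes, TGFBR1 (277 CPM ± 89.9, SD, n = 15) and TGFBR2 (254 CPM ± 53.7), which form the TGF-beta receptor, had their highest mean in microglia. So did 8 of the 11 SMAD and target genes with at least 100 UMIs. For some of these the next class lay within the spread, as for SMAD4 with 158 CPM ± 49.9 in microglia and 148 CPM ± 47.3 in rods, and no test was made. NRROS, the microglial anchor of latent TGF-beta, was 150 CPM ± 68.4 in microglia, and ITGB8, an integrin subunit that activates latent TGF-beta, was highest among the retinal classes in astrocytes at 223 CPM ± 93.4, against 253 CPM in the nuclei of ciliary epithelium type. Among ligands TGFB3 was highest in cones at 18.9 CPM ± 6.36, while TGFB2 had 27 UMIs and TGFB1 2 UMIs in assigned nuclei.

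The listed partner and pathway genes were tested in the same fits. Of 167 gene and class pairs tested, 0 rose and 2 fell in the mature against the infant retinas, 0 rose and 1 fell in the senile against the infant ones, and 0 passed between senile and mature (17, 15 and 13 pairs at an unadjusted p below 0.05, edgeR). The shares over all features were 0.823%, 1.1% and 0.00391% at the adjusted threshold, and 10.4%, 8.72% and 8.69% at the unadjusted one. The microfibril and elastic fibre partners gave 47 of the pairs and the 3 calls, the ligands and their activation 36, the receptors 14, the SMADs and targets 55 and the BMP and GDF ligands and antagonists 15, and no difference between the lists was tested.

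FN1 in astrocytes gave the calls that held without overlap. It encodes fibronectin, on which fibrillin and LTBP fibres are laid down. FN1 was 474, 241, 283, 181 and 168 CPM in infancy, 156, 57.7, 64.6, 113 and 40.6 CPM in the mature, and 105, 112, 89.6, 62.9 and 20.5 CPM in the senile retinas. Every later retina lay below every infant one, as was so for 0.472% of all astrocyte features in the mature and 0.682% in the senile retinas. FN1 fell by 1.61 ± 0.31 (SE) on the log2 scale in the mature and by 1.86 ± 0.33 in the senile retinas (edgeR adjusted p = 0.0142 and 0.00868). In astrocytes 0.21% of all features tested were called lower in the mature and 0.315% in the senile retinas. The call held in 18 of 27 alternatives for mature and in 23 of 27 for senile retinas. Counts were low, with 10 to 96 astrocytes per retina, of which 57.6% only just met the class assignment. In astrocytes 1 UMI corresponded to 28.1 CPM in Mature 4 and to 6.83 CPM in Senile 5.

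ADAMTS6, a secreted metalloprotease linked to microfibrils, fell in BCs by 0.91 ± 0.20 (SE) on the log2 scale in the mature retinas (edgeR adjusted p = 0.0433). It was 54.4, 39.4, 39.6, 49.2 and 29.3 CPM in infancy and 23.4, 30.0, 24.2, 15.2 and 17.6 CPM in the mature retinas, so Mature 2 lay above Infancy 5. The call held in 12 of 27 alternatives. In BCs 0.26% of all features were called lower in this contrast.

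**Figure D5:**
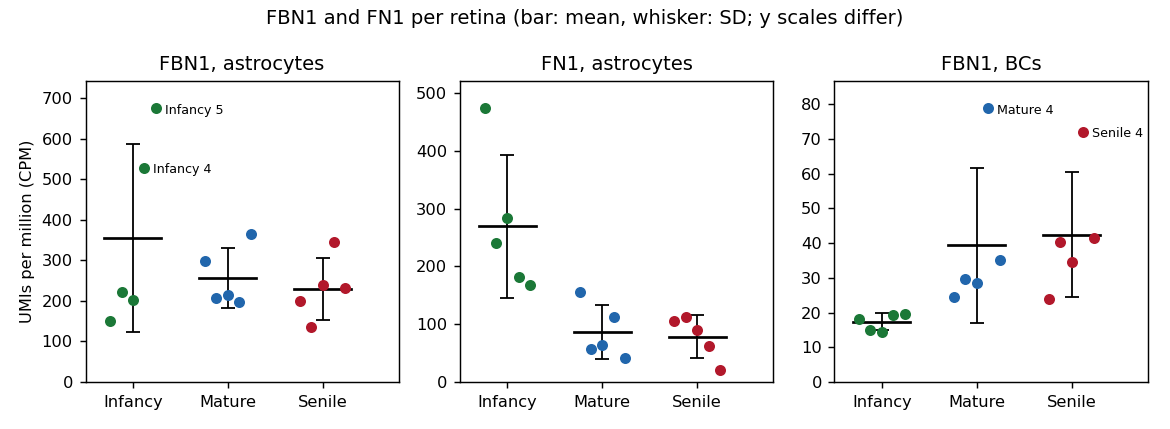
FBN1 and FN1 in astrocytes and FBN1 in BCs, in CPM per retina (points) with the mean (bar) and SD (whisker) of each stage; vertical scales differ. FN1 in every mature and senile retina lies below the lowest infant value of 168 CPM, FBN1 in astrocytes overlaps between stages, and FBN1 in BCs is above 19.6 CPM, the highest infant value, in every later retina.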

How the data were processed

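Nuclei of frozen retina were sequenced with a droplet kit by 10x Genomics. The authors deposited raw UMI counts per gene and nucleus on the tree shrew genome; the matrix headers name Cell Ranger 6.1.2 in 7 libraries and 7.0.1 in 8, the submitters' processing notes name 5.0.1 and 7.0.1, and intron counting is not given in the sources used here. Kept nuclei had a gene number above 200 and below 6000, with a mitochondrial share below 5%. Each was assigned to a class when at least 3 of its markers were detected, at least 2 more than of any other class; no doublet caller was run. Counts were summed per retina and class with at least 10 nuclei and tested with edgeR 4.0.16 in R 4.3.3 (TMM, filterByExpr, quasi-likelihood), with stage and Cell Ranger version as terms, p-values adjusted over all features of the class and a threshold of 0.05. Sex, which the study's model holds, is not in the labels and was not used. The SE given with an edgeR difference was derived from the test, as the absolute log2 difference divided by the square root of its F statistic. Classes were compared by exact sign-flip tests of log2(CPM + 1). The partner and pathway genes named for a stage difference are those called in a fit without overlap between stages; ADAMTS6, an overlapping call, and the genes named for their level in a class were chosen after their values were seen. For FBN2, the 5 features with the highest Pearson r were named. The members and lists were chosen with earlier results of these data known. The p-values measure the spread between retinas and take the retinas as independent. Gene counts of Infancy 1, 2 and 3 differed from each other by a chi-square of 5.68 to 6.91 per degree of freedom. All other pairs of the same stage differed by 16.1 to 87.8. The infant spread may therefore be too small, and whether these infant libraries share an origin was not tested.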

Additional observations from a re-analysis of the deposited data

Results flagged for a closer look

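Of 72 sets of 4 or 5 retinas (members by class and stage, without FBN2 in Müller glia, which was chosen by its values), 12 had a highest retina whose distance from the next was a large part of the whole range by Dixon's test, where chance gives about 1 in 20, and 7 of the 12 were in Mature 4. In Mature 4, FBN1 was 227 CPM in Müller glia, 78.8 CPM in BCs and 48.1 CPM in cones, and LTBP2 was 127 CPM in Müller glia, 49.5 CPM in BCs, 37.4 CPM in cones and 36.3 CPM in RGCs. This library also had the highest level of the ciliary markers, and their part in these values was not tested. In Infancy 5, LTBP2 was 31.2 CPM in Müller glia, and FBN3 was 11.9 CPM in RGCs. The other highest retinas were Senile 3 for LTBP3 in cones (11.6 CPM), Senile 4 for FBN1 in RGCs (75.4 CPM) and Mature 5 for FBN3 in BCs (12.4 CPM).

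Signal outside the compared values lay in antisense features and in nuclei without a class. LTBP1-AS-1 had 1983 UMIs and FBN2-AS-4 had 1058 UMIs in assigned nuclei. Kept nuclei without a class held 28606 of 39885 FBN1 UMIs (71.7%) and 11406 of 16708 LTBP2 UMIs (68.3%), against 5330 of 28510 FBN2 UMIs (18.7%).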

How the results depend on the processing

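No member was called in any contrast by the reported edgeR fit, and senile against mature retinas gave 0 calls under every alternative run. For mature against infancy, DESeq2 called 2 members and class pairs, no filter on low counts 4, and the ciliary marker level as covariate 1, where the same fits called 1.64%, 0.899% and 0.868% of all features. For senile against infancy, DESeq2 called 1, no filter 3, leaving out nuclei with ciliary markers 1, and leaving out Mature 4 and Senile 3 1, against 1.83%, 0.918%, 1.11% and 1.25% of all features. All of these were FBN1 except LTBP2 in Müller glia without the filter. Leaving out 1 retina gave 0 to 1 calls in each of both contrasts and 0 to 0 for senile against mature. For mature against infancy, FBN1 in Müller glia was called without Mature 3 or without Mature 5, against 0.76% and 0.683% of all features. For senile against infancy, FBN1 in BCs was called without Mature 4, against 1.27% of all features. The alternatives on ciliary RNA were chosen after seeing the data.

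In Müller glia, 107 features were called for mature and 117 for senile against infancy. DESeq2 called 201 and 208, no filter 578 and 546, and the libraries of Cell Ranger 7.0.1 alone 17 and 51, with fewer samples, while leaving out the version term gave 65 for mature. Leaving out 1 retina gave 53 to 125 and 84 to 152, with 53 without Infancy 4 and 68 without Mature 1. The fitted FBN2 difference in Müller glia stayed negative throughout, which is no check of the pattern, since these same values chose the gene. Its senile value moved to -4.44 under a stricter class assignment and to -2.47 in the libraries of version 6.1.2. A leading class was found for 2 members, and for 1 under the stricter assignment (2 to 2 leaving out 1 retina). FBN1 in astrocytes, mature against infancy, reversed to 0.33 among libraries of version 6.1.2. Apart from the values given, the causes were not tested.

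The labels give retinas of the same number no shared origin. Deviations of retinas with the same number correlated at -0.34 to 0.47 in Müller glia (12 of 15 pairs above 0.1), and 2 of 15 pairs were the best match of their retina, as were 4 of 15 in cones and in BCs. All 5 pairs of infant with senile retinas were above 0.1 in these classes, which was not so for the pairs with mature retinas. With the replicate block, 1 member and class pair was called for mature and 1 for senile against infancy, both FBN1 in BCs, against 0.624% and 0.938% of all features. Retinas numbered 1 and 2 were all of Cell Ranger version 6.1.2, and those numbered 4 and 5 all of 7.0.1. The block and the version therefore cannot be fully told apart.

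Depth limits HCs, rods, astrocytes and microglia most, where 508 to 986 nuclei left most members below the filter and so untested there.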
